A study of Mus musculus with 9 samples.

Results

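The 3 genes of the Nr4a family, Nr4a1, Nr4a2 and Nr4a3, were followed across the cells of 9 single-cell RNA libraries of mouse LSK cells, the lineage-negative, Sca1-positive, cKit-positive fraction of bone marrow that holds the hematopoietic stem cells (HSC) and their earliest progeny. They were chosen by gene symbol, and all 3 were found among the 31053 genes that each library lists. The libraries came from 3 samples of young C57BL/6 mice of 10 to 12 weeks, 3 aged samples of more than 80 weeks, and 3 samples of more than 80 weeks that had been given CASIN, an inhibitor of the small RhoGTPase Cdc42, at 25 mg/kg intraperitoneally on 4 days, 24 h apart, with marrow taken on day 5. The young and aged controls were injected with cyclodextrin. All cells had been viably frozen and thawed before capture with the 10x Genomics 3' chemistry, version 3. The labels place young 1, young 2, aged 1, CASIN 1 and CASIN 2 in a first sequencing batch and young 3, aged 2, aged 3 and CASIN 3 in a second. Nothing in the sources used here says whether a sample was 1 mouse or a pool, so the p-values below measure the spread between these samples.

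The Nr4a proteins (also known as Nur77, Nurr1 and Nor-1) are orphan nuclear receptors: they bind DNA as transcription factors without a known classical hormone and act largely through how much of them is made. Their genes are immediate early genes, switched on within minutes of growth factor, calcium or cAMP signals without new protein synthesis, and the proteins bind as monomers to a DNA element called NBRE. In blood stem cells they are known for restraining proliferation, and mice lacking both Nr4a1 and Nr4a3 develop acute myeloid leukemia. Cell isolation is also known to induce immediate early genes, so other genes of that class are given beside them.

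In the mouse genome (GRCm38, GENCODE M21) Nr4a1 (ENSMUSG00000023034) lies on chr15:101254269-101274795 on the plus strand, Nr4a2 (ENSMUSG00000026826) on chr2:57106830-57124003 on the minus strand, and Nr4a3 (ENSMUSG00000028341) on chr4:48045153-48086447 on the plus strand. The promoters are shown because the 3 genes are read below as members of one signal-responsive class. The sequences are those of RefSeq on GRCm38.p6, 5' to 3' on the strand of the gene, with the core of the cAMP response element (CRE), TGACG, in capitals wherever it occurs on either strand (CGTCA when on the other strand). For Nr4a1 the 250 bases before the RefSeq start are chr15:101266596-101266845, inside the gene's span but in no annotated exon. For Nr4a2 they are chr2:57124004-57124253, upstream of the gene. For Nr4a3 the window is chr4:48045055-48045304, of which 152 bases are exon in GENCODE, and only the 98 bases before that exon, chr4:48045055-48045152, are printed.
Nr4a1: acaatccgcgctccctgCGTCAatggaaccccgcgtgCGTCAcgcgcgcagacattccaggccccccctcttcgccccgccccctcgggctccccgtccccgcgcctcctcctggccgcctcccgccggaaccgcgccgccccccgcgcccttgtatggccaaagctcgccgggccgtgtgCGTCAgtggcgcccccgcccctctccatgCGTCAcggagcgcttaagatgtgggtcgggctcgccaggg
Nr4a2: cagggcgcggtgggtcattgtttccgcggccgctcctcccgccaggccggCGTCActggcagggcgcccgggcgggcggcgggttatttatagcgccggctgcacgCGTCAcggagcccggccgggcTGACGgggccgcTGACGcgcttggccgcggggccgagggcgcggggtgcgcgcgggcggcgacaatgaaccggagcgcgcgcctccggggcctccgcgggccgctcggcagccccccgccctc
Nr4a3: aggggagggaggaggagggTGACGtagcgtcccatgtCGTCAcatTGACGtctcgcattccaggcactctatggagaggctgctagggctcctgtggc

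Each of the 3 windows of 250 bases held 4 CRE cores, 3 of the 4 in the printed part of Nr4a3. A CRE core on either strand occurred in 17.77% of 32841 mouse promoter windows of this length, and 45 of them (0.137%) held 4 or more. The full palindrome TGACGTCA (1.547% of promoters) was in none of the 3. The GC box GGGCGG (32.75% of promoters) occurred 3 times before Nr4a1, 4 times before Nr4a2 and 1 time before Nr4a3. TATAAA (12.37%) and the MEF2 motif (2.917%) each occurred 1 time, before Nr4a2, at overlapping positions, with TATAAA on the other strand, 164 to 159 bases before the start. The CArG box of SRF (1.468%) and the NBRE itself, AAAGGTCA (1.337%), were in none. The windows were 74.4%, 80.0% and 63.6% GC for Nr4a1, Nr4a2 and Nr4a3, against a median of 52.4% over all promoters. These are matches of letters and no measure of binding.

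**Figure D1:**
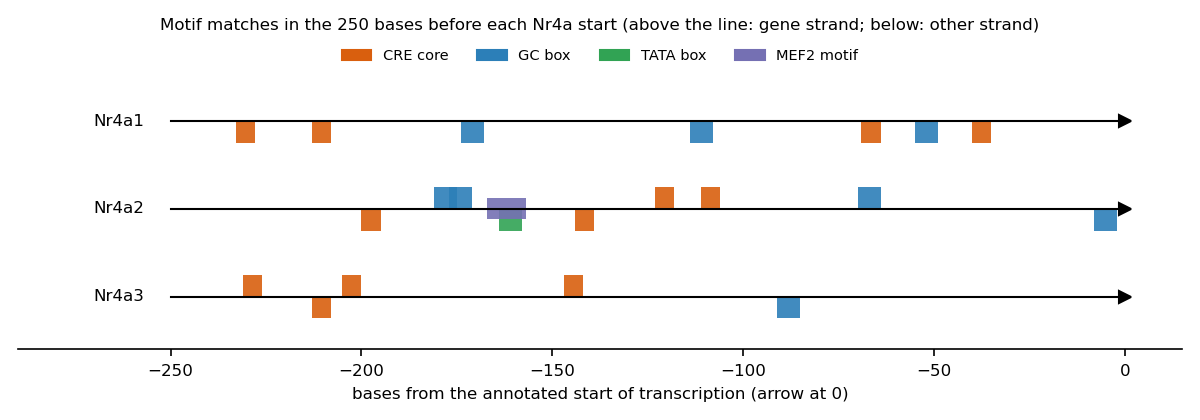
Motif matches in the 250 bases before the annotated start of each Nr4a gene. The x axis is the distance from the start in bases, boxes above the line are on the strand of the gene and boxes below it on the other strand. Each gene has 4 CRE cores. Only Nr4a2 has a match of TATAAA, on the other strand, and of the MEF2 motif, at overlapping positions.

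The libraries held 19237354 to 42780953 unique molecular identifiers (UMIs, one per captured transcript), and 15856 of 32387 barcodes passed the filters, 1112 to 2417 per sample. The batches differed in quality: the median mitochondrial share of a barcode was 2.73 to 4.61% in the first batch and 13.02 to 15.53% in the second, and 73.83% against 34.42% of barcodes were kept. Of the kept cells 225 (1.419%) carried a barcode that another library of the same batch also used. Ly6a (Sca1) was at 87.91 to 186.4 and Kit at 111.8 to 224.9 CPM (UMIs scaled to a common library total) in every sample, while the T cell gene Cd3e did not exceed 0.338 CPM. Aged 2 had the highest Nr4a levels of all samples, so the fitted differences of the Nr4a genes between aged and other samples are also given without it.

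Subsets were made by clustering without the Nr4a, immediate early and heat shock genes. Stem-like cells (4001, 25.23%) were led by Ramp2, Nupr1, Sult1a1 and Vwf in one cluster and by Procr and the antigen presentation genes Cd74 and H2-Aa in another. Lymphoid-like cells (3440, 21.7%) were led by Wfdc17, the chemokine genes Ccl3 and Ccl4, and Dntt, with Satb1 and Flt3 also among the top 10. Cycling-like cells (1373, 8.659%) were led by cell cycle genes. The largest cluster (4673, 29.47%), led by Ctla2a and Rgs1, took the place of multipotent progenitors, but 0 of the multipotent and 1 of the stem markers (Hlf) were among its top 10 genes, so it is called the central cluster. Its mean CPM lay between those of stem-like and lymphoid-like cells for Cd34 (102.7, 305.6 and 428.3), Cd48 (4.842, 48.92 and 101.7) and the stem gene Procr (184.3, 98.0 and 43.03). Hlf did not lie between, at 262.1 CPM in stem-like, 266.8 in central and 129.0 in lymphoid-like cells. Myeloid-like cells were led by Elane, S100a8, S100a9, Ms4a3, Ctsg and Mpo, with 2 markers of neutrophils and monocytes among the top 10. They were only 80 in all, 4 to 15 per sample, and allowed no test because 3 samples, none aged, had 10 or more. A cluster of 128 cells with 3 myeloid markers (Ly6c2, Lgals1 and Irf8) but also the B lineage genes Ebf1 and Cd79a among its top 10 stayed unnamed, and averaged 209.0 CPM of Nr4a1, 161.1 of Nr4a2 and 26.82 of Nr4a3. With these 128 cells included, 2289 cells in 5 clusters belonged to no subset.

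Among the subsets Nr4a2 was highest in stem-like cells in every sample. Summed per sample, it reached 58.54, 80.7 and 141.9 CPM in the stem-like cells of young 1, 2 and 3, 340.6, 762 and 328.2 CPM in those of aged 1, 2 and 3, and 257.8, 259.1 and 337.7 CPM in those of CASIN 1, 2 and 3. Over the 9 samples its mean was 285.2 CPM in stem-like cells, 181.5 in the central cluster, 117.0 in cycling-like, 116.9 in lymphoid-like and 13.19 in myeloid-like cells. Within a sample, stem-like cells exceeded the central cluster in 9 of 9 samples by 0.68 ± 0.23 on the log2 scale (SD), lymphoid-like cells in 9 of 9 by 1.39 ± 0.60, and cycling-like cells in 9 of 9 by 1.56 ± 0.82. The central cluster exceeded lymphoid-like cells in 9 of 9, whereas lymphoid-like exceeded cycling-like cells in 5 of 9, so the last of these neighbors were not ordered. The difference also ran within the stem-like cells: the cluster led by Ramp2 and Vwf averaged 308.4 CPM and the one led by Cd74 and Procr 209.5.

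Nr4a1 showed no such gradient over the 9 samples together, but the order of its means differed between the batches. Its mean was 388.2 CPM in stem-like, 381.8 in lymphoid-like, 374.3 in cycling-like and 362.7 in central cells, each a difference far smaller than the spread over samples. Stem-like cells exceeded the central cluster in 7 of 9 samples (0.24 ± 0.34 on the log2 scale), lymphoid-like cells in 5 of 9 and cycling-like cells in 6 of 9. In the first batch the mean was 307.7 CPM in stem-like, 254.8 in central, 195.0 in lymphoid-like and 116.2 in cycling-like cells. In the second batch the mean ran the other way, at 488.8, 497.6, 615.2 and 697.0 CPM in the same order. Not every sample followed its batch mean. CASIN 3 of the second batch held 394.5, 236.1, 408.8 and 345.6 CPM in that order. In young 1 and young 2 of the first batch lymphoid-like cells were above central ones. Myeloid-like cells were the lowest, with 36.52 CPM on average and 0 to 123.9 CPM per sample. Pooled over all samples, these 80 cells held 55 UMIs of Nr4a1, 20 of Nr4a2 and 5 of Nr4a3, in 23.75%, 10% and 6.25% of cells, and in 4 samples of the first batch their median depth was only 1285 to 2083 UMIs against 17710 to 26750 UMIs in the other samples.

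Nr4a3, of which few UMIs were sampled, gave another order. Its mean was 39.24 CPM in stem-like, 26.6 in lymphoid-like, 20.24 in central, 19.46 in cycling-like and 3.079 in myeloid-like cells. Stem-like cells exceeded cycling-like cells in 9 of 9 samples (0.74 ± 0.39 on the log2 scale) and the central cluster in 8 of 9 (0.59 ± 0.47), but lymphoid-like cells in 5 of 9, so the top of this order was not resolved. The batches differed here: stem-like and lymphoid-like means were 4.142 and 4.809 CPM in the first and 83.11 and 53.83 CPM in the second. Lymphoid-like cells in turn exceeded cycling-like cells in 9 of 9 (0.60 ± 0.23). These orders are descriptions without a test, since the subsets were drawn from the same cells.

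**Figure D2:**
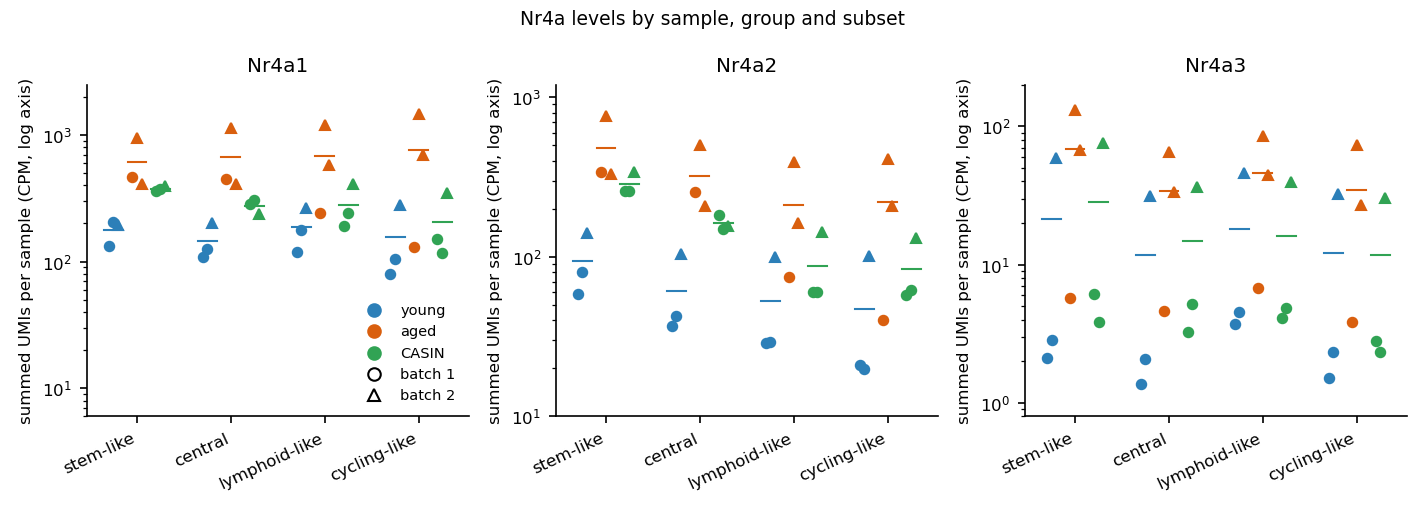
Level of each Nr4a gene in each sample and subset, as UMIs summed over cells in CPM on a log axis, with group means as bars; circles are the first and triangles the second sequencing batch. In the 4 subsets plotted aged 2 is the highest point, at 952.4 CPM of Nr4a1, 762 of Nr4a2 and 131 of Nr4a3 in stem-like cells, and for Nr4a3 the batches separate in every group.

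The first comparison asks how the family differs between aged and young LSK cells. Nr4a1 and Nr4a2 rose in aged stem-like cells, while Nr4a3 did not pass the main test. Nr4a1 was at 132.8, 207 and 195.5 CPM in the young samples (178.4 ± 39.94, SD, n = 3) and at 466.9, 952.4 and 412.7 CPM in the aged ones (610.7 ± 297.2). Nr4a2 averaged 93.71 ± 43.18 CPM in young and 476.9 ± 247 CPM in aged stem-like cells. For both genes every aged sample lay above every young one. The share of all genes that separate in this way is not given, here or for the separations below. In edgeR's quasi-likelihood test with batch as a term and Benjamini-Hochberg adjustment over all genes tested, the difference was 1.73 on the log2 scale for Nr4a1 (SE 0.26, 3.318-fold, adjusted p = 0.001869) and 2.23 for Nr4a2 (SE 0.26, 4.702-fold, adjusted p = 0.0002949). Both calls held whichever single sample was left out, and without aged 2 the differences were 1.36 and 1.92. Within the first batch they were 1.46 and 2.29 and within the second 1.80 and 1.94.

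Nr4a3 differed between aged and young stem-like cells by 0.94 (SE 0.28, interval of 2 SE 0.37 to 1.51, adjusted p = 0.06777 by edgeR). Its levels were 2.116, 2.852 and 58.84 CPM in young and 5.77, 131 and 67.15 CPM in aged samples, so the groups overlapped across the batches. Within each batch, however, the aged samples were above the young, by 1.22 in the first and 0.75 in the second on the log2 scale. The direction was kept without aged 2 (0.53), and without aged 3 the call passed (1.25, adjusted p = 0.002557 by edgeR). With DESeq2 in place of edgeR Nr4a3 passed in stem-like cells (0.99, SE 0.30, adjusted p = 0.02674). Of all 11867 genes DESeq2 called 446 up and 180 down there.

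In the central cluster Nr4a1 rose by 2.10 (SE 0.34, adjusted p = 0.01292) and Nr4a2 by 2.32 (SE 0.33, adjusted p = 0.007379) in the edgeR test. Nr4a1 was at 109.1, 126.3 and 201.2 CPM in young and 451.3, 1142 and 411.2 CPM in aged samples, again without overlap, and without aged 2 the differences were 1.61 and 2.00. The Nr4a1 call was lost without young 1 or young 2 (adjusted p = 0.06333 and 0.05764) and the Nr4a2 call without young 2 (adjusted p = 0.053), all by edgeR. In lymphoid-like cells only Nr4a2 passed (1.54, SE 0.26, adjusted p = 0.03048), and in cycling-like cells likewise (1.63, SE 0.31, adjusted p = 0.02585), against adjusted p = 0.07823 and 0.0563 for Nr4a1 in edgeR. In both subsets aged 1 lay above young 1 and 2 of its own batch (by 0.71 and 1.36 for Nr4a1 and Nr4a2 in lymphoid-like and by 0.51 and 0.98 in cycling-like cells) but below young 3 of the other batch. Its cycling-like cells held 131.2 CPM of Nr4a1, where the young held 79.84, 104 and 281.5, and aged 2 and 3 held 1472 and 689.1. The lymphoid-like call of Nr4a2 was lost without any one of young 1, 2, 3 or CASIN 3 (adjusted p = 0.06379 to 0.1446) and the cycling-like call without any one of young 1, 2, 3 or CASIN 1 (0.05296 to 0.1037) in edgeR. DESeq2 called Nr4a2 in lymphoid-like but not in cycling-like cells (adjusted p = 0.01309 and 0.1435). It called 49 genes up and 11 down of 11443 in lymphoid-like and 46 up and 13 down of 10785 in cycling-like cells. Without aged 2 the Nr4a2 differences fell to 1.101 in lymphoid-like and 1.16 in cycling-like cells, while those of Nr4a1 fell to 0.95 and 0.98 and passed (adjusted p = 0.04615 and 0.02447 by edgeR). Nr4a3 differed by 0.94 (SE 0.32), 0.63 (SE 0.25) and 0.73 (SE 0.35) in central, lymphoid-like and cycling-like cells and passed in none, and without aged 2 its differences were 0.54, 0.22 and -0.06.

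Counted over 3 genes and 4 tested subsets, 12 of 12 differences between aged and young were positive, 11 had an unadjusted p under 0.05 and 6 passed after adjustment, but 0 passed without the batch term. The share of all genes passing without that term is not given here, and the counts that follow are from the main fit. Before adjustment 2538 of 11867 genes were under 0.05 in stem-like, 2015 of 11874 in central, 1158 of 11443 in lymphoid-like and 1320 of 10785 in cycling-like cells. The share of all tested genes that passed in this comparison was 6.79% in stem-like, 2.5% in central, 0.245% in lymphoid-like and 0.501% in cycling-like cells. Over all LSK cells together 4.14% of genes passed, among them Nr4a1 (1.78, SE 0.30, adjusted p = 0.01677) and Nr4a2 (2.26, SE 0.31, adjusted p = 0.01025) but not Nr4a3 (0.83, SE 0.25, adjusted p = 0.09005) in the edgeR test. Without aged 2 these were 1.39, 2.00 and 0.51. DESeq2 called all 3 over all LSK cells, Nr4a3 at adjusted p = 0.02262. Of all 13948 genes it called 800 up and 349 down there. The edgeR calls over all LSK cells were lost without young 1 or without young 2 (adjusted p = 0.05936 to 0.07738). Stem-like cells made up 14.21 to 18.23% of young, 22.7 to 39.21% of aged and 28.12 to 35.37% of CASIN samples. Differences over all LSK cells therefore mix the make-up of subsets with the level inside them. In bulk sums of this kind more positive cells and more molecules per cell cannot be told apart. Detected shares and UMIs per positive cell are given below. Both rise with the mean count per cell, so they do not separate the 2 either.

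The second comparison asks whether CASIN changed the family in aged mice. No Nr4a gene passed the test in any subset, although all 12 differences were negative. In stem-like cells Nr4a1 was at 360, 372 and 394.5 CPM in CASIN samples (375.5 ± 17.51) against 466.9, 952.4 and 412.7 CPM in aged ones. Every CASIN sample thus lay below every aged sample. These levels are not adjusted for batch, and aged 2, aged 3 and CASIN 3 were of the second batch. The fitted difference was -0.59 (SE 0.25, interval of 2 SE -1.097 to -0.082, adjusted p = 0.9999 by edgeR). Nr4a2 was at 284.9 ± 45.76 CPM, and CASIN 3 (337.7 CPM) was above aged 3 (328.2 CPM). Its difference was -0.495 (SE 0.248) and that of Nr4a3 was -0.31 (SE 0.26). Without aged 2 the stem-like differences of CASIN from aged shrank to -0.22 for Nr4a1 and -0.19 for Nr4a2 and turned to 0.09 for Nr4a3.

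Outside the stem-like cells the difference of CASIN from aged was -1.12 (SE 0.34) for Nr4a1 in the central cluster, -0.77 (SE 0.29) in lymphoid-like and -1.06 (SE 0.33) in cycling-like cells, and without aged 2 it was -0.66, -0.35 and -0.56. In cycling-like cells the batches differed: Nr4a1 moved by 0.02 in the first batch, where aged 1 had 131.2 and CASIN 1 and 2 had 149.9 and 116 CPM, and by -1.64 in the second, where aged 2 and 3 had 1472 and 689.1 and CASIN 3 had 345.6 CPM. Left without aged 1, this one difference passed (-1.60, adjusted p = 0.02201 by edgeR). Of the 12 differences 7 had an unadjusted p under 0.05 and 0 passed, with adjusted p = 0.4679 to 0.9999 in edgeR. Among all tested genes 0% passed in stem-like, central, lymphoid-like and cycling-like cells and in all LSK cells. In the same order 302, 546, 639, 859 and 452 genes were under 0.05 before adjustment. DESeq2 called 1, 3, 0, 2 and 0 genes in the same order, none of them an Nr4a gene. In the second batch alone 4 of the 12 differences passed, 2 in lymphoid-like cells (15 of all genes rose and 50 fell) and 2 in cycling-like cells (14 and 37). There CASIN is 1 library, assumed to vary like the 2 aged ones, which alone give the spread. Without the expression filter 6 of 12 passed, and the share of all genes passing in that fit is not given here.

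The third comparison sets CASIN against young mice, with the same young samples as the first. In stem-like cells Nr4a1 was higher by 1.14 (SE 0.25, 2.205-fold, adjusted p = 0.01088) and Nr4a2 by 1.74 (SE 0.25, 3.337-fold, adjusted p = 0.0009716) in edgeR's test, with all CASIN samples above all young ones for both genes. The Nr4a1 call was lost without young 1 (0.96, adjusted p = 0.06909 by edgeR). Within batches the Nr4a1 difference was 1.11 and 1.01 and that of Nr4a2 1.89 and 1.25. In the central cluster Nr4a2 passed (1.54, SE 0.33, adjusted p = 0.04214) and was lost without any one of young 1, young 2, CASIN 1, CASIN 2 or CASIN 3 (adjusted p = 0.05394 to 0.2146), while Nr4a1 did not pass (0.98, SE 0.32, adjusted p = 0.1486), by edgeR. Neither passed in lymphoid-like cells (0.59 and 0.89) or in cycling-like cells (0.43 and 1.07). Nr4a3 passed nowhere and lay at 0.63 (SE 0.30) in stem-like, -0.05 (SE 0.26) in lymphoid-like and -0.02 (SE 0.40) in cycling-like cells.

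Of the 12 differences of CASIN from young, 10 were positive, 7 had an unadjusted p under 0.05 and 3 passed, and 0 passed without the batch term. The share of all genes passing without that term is not given here, and the counts that follow are from the main fit. Over all genes 3002 in stem-like, 2160 in central, 752 in lymphoid-like and 812 in cycling-like cells were under 0.05 before adjustment. The share of all tested genes that passed was 10.6% in stem-like, 1.89% in central, 0.157% in lymphoid-like, 0.287% in cycling-like cells and 4.5% in all LSK cells, where Nr4a2 passed (1.64, SE 0.31, adjusted p = 0.02256 by edgeR) and was lost without any one of young 1, young 2, CASIN 1, CASIN 2 or CASIN 3 (0.05311 to 0.1231).

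**Figure D3:**
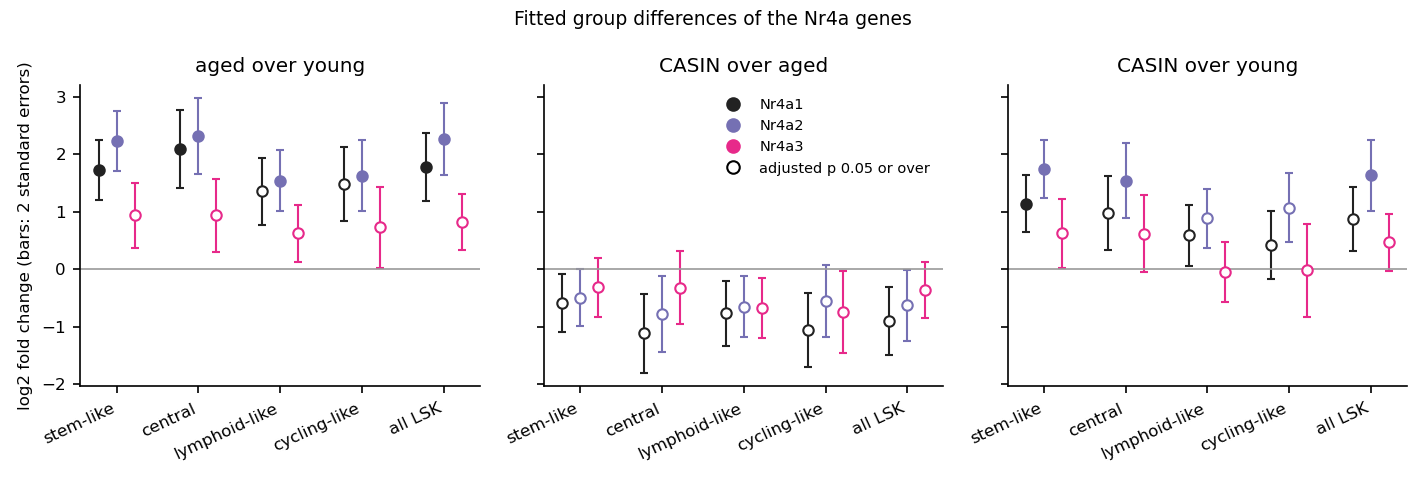
Log2 fold change of each Nr4a gene in each subset and in all LSK cells for the 3 comparisons, with bars of 2 standard errors and open points where the adjusted p was 0.05 or over. Of the 12 subset differences 6 were called for aged over young, 0 for CASIN over aged and 3 for CASIN over young, and the CASIN over aged points all lie below 0.

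The differences of aged and CASIN from young samples were larger in stem-like than in lymphoid-like cells for each gene, and whether subsets differed was tested by an interaction term in one edgeR fit over stem-like cells and one other subset, with the sample as a block. None of 27 tests (3 genes, 3 comparisons, 3 other subsets) passed. The interaction nearest to passing before adjustment was that of Nr4a1 for CASIN over aged in stem-like against central cells, where the stem-like difference was the less negative by 0.60 (SE 0.16, adjusted p = 0.987 by edgeR). For CASIN over young, the stem-like difference of Nr4a2 exceeded the lymphoid-like one by 0.86 (SE 0.36, adjusted p = 0.48 by edgeR). With a term that let each subset have its own batch effect, an alternative chosen after seeing the data, 5 of 27 passed: Nr4a2 for aged over young and all 3 genes for CASIN over young against lymphoid-like cells, and Nr4a1 for CASIN over young against cycling-like cells. That fit called more genes in general: 351 of 12192 for aged over young and 616 for CASIN over young against lymphoid-like cells, and 487 of 11853 for CASIN over young against cycling-like cells. In the fit with the sample block alone the share of all genes that passed was, for aged over young, CASIN over aged and CASIN over young in that order, 0%, 0% and 0.258% against the central cluster, 0.082%, 0% and 0.279% against lymphoid-like and 0%, 0% and 0.0253% against cycling-like cells.

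Nr4a3 differed between the sequencing batches in every group. Over all kept cells it was at 2.392 to 5.172 CPM in the 5 samples of the first batch and at 39.13 to 84.92 CPM in the 4 of the second, without overlap (exact two-sided permutation test, p = 0.007937, the smallest that 5 against 4 samples allow). In stem-like cells the first batch gave 9, 10, 38, 29 and 19 UMIs of Nr4a3 in young 1, young 2, aged 1, CASIN 1 and CASIN 2, and the second 146, 565, 248 and 600 in young 3, aged 2, aged 3 and CASIN 3. The fitted batch difference was 4.08 on the log2 scale in stem-like cells (16.89-fold) and 3.66 in all LSK cells (12.64-fold, adjusted p = 5.281e-07 by edgeR). Nr4a2 differed by 0.62 in stem-like cells (adjusted p = 0.01708) and Nr4a1 by 0.23 (adjusted p = 0.3526), and in cycling-like cells the differences were 1.93 and 1.84. Batch differences were general: 69.5% of genes tested in stem-like, 69.6% in central, 66.7% in lymphoid-like, 65.9% in cycling-like and 71% in all LSK cells passed. The mitochondrial share moved with the batch too, and its part in the Nr4a3 difference was not tested. It also differed between groups inside each batch. In kept cells of the first batch its median was 2.868 and 2.648% in young 1 and 2. Aged 1 stood at 3.437%, and CASIN 1 and 2 at 3.486 and 3.325%. In the second batch young 3 had 5.029%, aged 2 and 3 had 6.997 and 5.909%, and CASIN 3 had 6.327%. Its part in the group differences of the Nr4a genes was not tested either.

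Other immediate early genes did not follow Nr4a3 across batches. The summed CPM of 26 of them in stem-like cells was 9623 and 10030 in young 1 and 2, 16220 in aged 1, and 16550 and 16650 in CASIN 1 and 2, but 2937, 6021, 4427 and 3689 in young 3, aged 2, aged 3 and CASIN 3. The first batch was thus the higher for the sum, which Fos led, and the lower for Nr4a3. Inside each batch the young samples had the lowest sum, as they had the lowest Nr4a1 and Nr4a2.

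**Figure D4:**
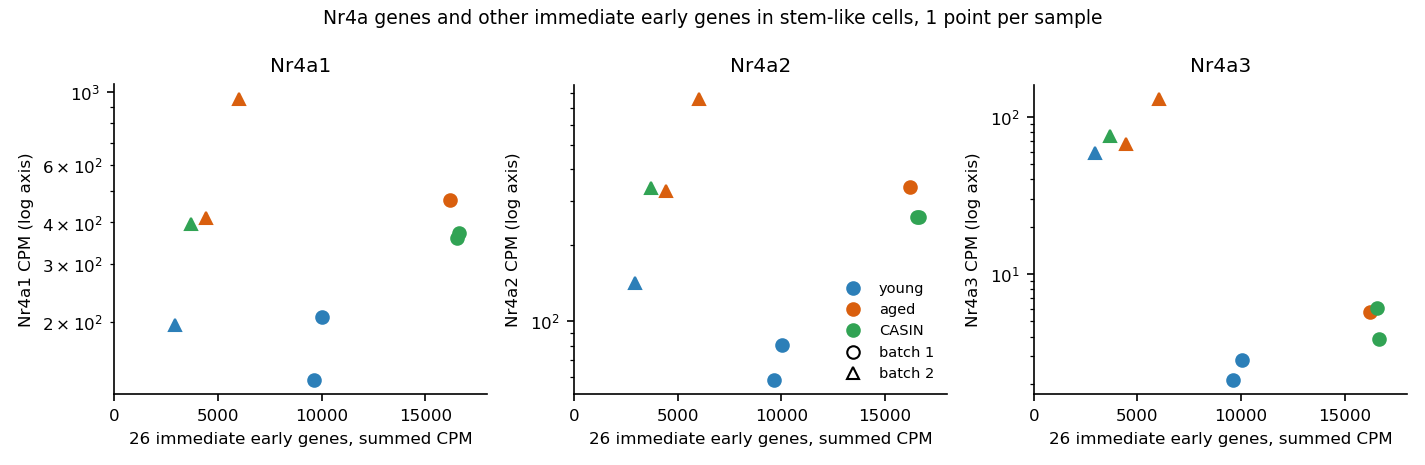
Level of each Nr4a gene in stem-like cells (CPM, log axis) against the summed CPM of 26 other immediate early genes, 1 point per sample; circles are the first and triangles the second batch. Samples of the second batch lie at sums of 2937 to 6021 and those of the first at 9623 to 16650, and within each batch young samples are lowest on both axes for Nr4a1 and Nr4a2.

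Shares of positive cells were compared after thinning each cell to 4000 UMIs, which left out 332 shallower cells (1.217 to 3.159% per group and batch). In stem-like cells Nr4a1 was then detected in 34.63, 48.0 and 41.27% of cells in young 1, 2 and 3, in 71.59, 89.02 and 64.01% in aged 1, 2 and 3, and in 62.74, 63.3 and 61.83% in CASIN 1, 2 and 3. Both aged and CASIN samples were above all young samples. Nr4a2 was detected in 16.43, 23.07 and 38.27% of young, 62.6, 87.48 and 59.7% of aged and 52.83, 49.85 and 62.93% of CASIN stem-like cells. Nr4a3 was found in 0.828, 0.990 and 21.04% of young, 2.344, 34.54 and 19.23% of aged and 2.32, 1.22 and 23.49% of CASIN stem-like cells, the high values being those of the second batch. No LSK subset is known to lack these genes, so the share that free RNA alone would give was not measured.

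The group means of molecules per positive stem-like cell ran in the same order of groups. Thinned UMIs of Nr4a1 per positive cell averaged 1.79 in young, 3.12 in aged and 2.34 in CASIN samples, and those of Nr4a2 1.496, 2.567 and 1.995. For Nr4a2 CASIN 3 (2.198) was above aged 1 (2.059) and aged 3 (2.183), with aged 2 at 3.461. For Nr4a1 the CASIN samples were at 2.225 to 2.56 and the aged at 2.579 to 4.145. The exact permutation test of 3 against 3 samples cannot go below p = 0.1 (two-sided), and over 100 such tests of shares and molecules the lowest adjusted p was 0.2941. The most UMIs in a single cell were 110 for Nr4a1, in a cycling-like cell of aged 2, 49 for Nr4a2 and 13 for Nr4a3. Unthinned, 60.12 to 96.5% of stem-like cells held a UMI of Nr4a1, at a median depth of 8397 to 12930 UMIs.

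The family was detected together in single cells more often than the separate shares predict. Among thinned cells of all subsets, the number with both Nr4a1 and Nr4a2 was 1.189 times the product of their shares (geometric mean over samples, range 1.017 to 1.32), that of Nr4a1 and Nr4a3 1.166 times (1.025 to 1.282) and that of Nr4a2 and Nr4a3 1.233 times (1.082 to 1.394). Each ratio was above 1 in 9 of 9 samples (two-sided exact sign-flip permutation test, p = 0.003906, the smallest possible, adjusted p = 0.008398 over 43 tests). In young 1 this meant 102.8 cells with both Nr4a1 and Nr4a2 where 77.82 were expected. In aged 2, where most cells held both, it meant 1192 against 1171, and the ratio is bounded near 1 there. Of the genes of another kind, Cdc42 gave a ratio of 0.9965 with Nr4a1 (above 1 in 3 of 9 samples, adjusted p = 0.2785, exact permutation) and Ptprc (CD45) 1.016 (8 of 9, adjusted p = 0.06617, exact permutation).

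Co-detection was also present inside the subsets. Nr4a1 and Nr4a2 stood at 1.139 in stem-like, 1.214 in central, 1.167 in lymphoid-like and 1.224 in cycling-like cells, above 1 in 9 of 9 samples each (exact permutation, adjusted p = 0.008398 each). Nr4a1 and Nr4a3 stood at 1.169 in stem-like cells (8 of 8 samples with enough expected cells, adjusted p = 0.014) and Nr4a2 and Nr4a3 at 1.157 (7 of 7, adjusted p = 0.024) in the exact permutation test. The central cluster was the exception for Nr4a1 and Nr4a3, at 1.106 and above 1 in 8 of 9 (adjusted p = 0.168, exact permutation). With other immediate early genes Nr4a1 stood at 1.115 for Fos, 1.104 for Egr1, 1.051 for the phosphatase gene Dusp1 and 1.036 for Junb over all cells, each above 1 in 9 of 9 samples (exact permutation, adjusted p = 0.008398). In cycling-like cells the ratio for Fos was 1.067 and above 1 in 7 of 9 (adjusted p = 0.1536, exact permutation). The genes of another kind were not at 1 throughout: Cdc42 was at 0.9832 in cycling-like cells (above 1 in 2 of 9, adjusted p = 0.02799, exact permutation) and Ptprc at 1.032 in lymphoid-like cells (7 of 9, adjusted p = 0.024, exact permutation).

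**Figure D5:**
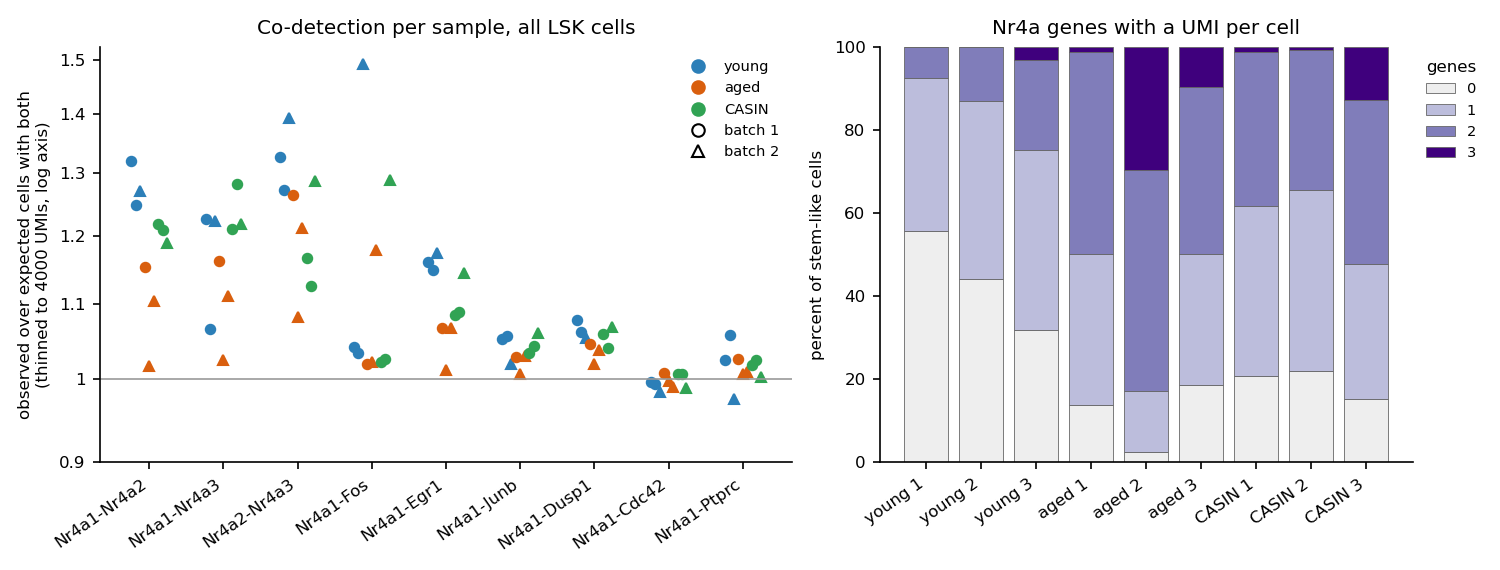
Left, observed over expected number of cells with a UMI of both genes, per sample over all LSK cells thinned to 4000 UMIs (log axis, line at 1); right, percent of stem-like cells of each sample with a UMI of 0, 1, 2 or 3 Nr4a genes. The 3 Nr4a pairs lie above 1 in all 9 samples, and stem-like cells without any Nr4a UMI range from 2.398% in aged 2 to 55.62% in young 1.

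Counted per cell after thinning, stem-like cells without a UMI of any Nr4a gene made up 55.62, 44.09 and 31.8% in young 1, 2 and 3, 13.65, 2.398 and 18.44% in aged 1, 2 and 3, and 20.66, 21.98 and 15.27% in CASIN 1, 2 and 3. Every young sample was above every aged and CASIN sample. Cells with all 3 genes were 0, 0 and 3.226% in young, 1.316, 29.74 and 9.61% in aged and 1.198, 0.8065 and 12.9% in CASIN samples, with the values above 3% all in the second batch. When the immediate early genes were let into the clustering, 1093 cells formed a cluster led by Fos, Fosb and Egr1. Compared within each sample, which gave the cluster 28 to 242 cells, Nr4a1 and Nr4a2 were higher inside it than in the other cells in 9 of 9 samples and Nr4a3 in 6 of 9. Nr4a2 was at 35.91 against 32.88 CPM in young 1, 316.0 against 216.2 CPM in aged 1 and 443.8 against 100.2 CPM in young 3. This is a description, since the Nr4a genes took part in that clustering.

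The genes around the family in its pathway were followed in stem-like cells by lists. Of the 26 immediate early genes 15 rose and 0 fell from young to aged, where 6.79% of all genes passed, with a median of 1.05 on the log2 scale against 0.01 over all genes tested. Without aged 2 it was 14 with a median of 0.81. Egr3 rose by 2.55 (SE 0.29, adjusted p = 0.0002657), Egr2 by 2.46 (SE 0.58, adjusted p = 0.02218) and Atf3, a stress-induced repressor, by 1.64 (SE 0.28, adjusted p = 0.003459) in edgeR. Egr2 lies near 1 CPM in young samples (0.968 ± 0.6289) and its fold is accordingly coarse. From young to CASIN, where 10.6% of all genes passed, 11 rose and 1 fell, the one being the activation marker Cd69 (-2.13, SE 0.49, adjusted p = 0.01461 by edgeR), with a median of 0.64. From aged to CASIN 0 passed, and 23 of 26 were negative with a median of -0.36 against 0.003 over all genes. Without aged 2 this median shrank to -0.154 against 0.007, and 0 passed.

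Of 23 tested regulators upstream of the family, 2 rose and 0 fell from young to aged, near the 6.79% of all genes that passed. They were Ptger4, a prostaglandin E2 receptor that signals through cAMP (0.98, SE 0.22, adjusted p = 0.01826), and Mef2d, a calcium-responsive transcription factor (0.62, SE 0.12, adjusted p = 0.009373 by edgeR). From young to CASIN 4 rose (10.6% of all genes passed), among them Mef2d (0.59), Hdac7, a class IIa histone deacetylase that binds MEF2 factors (0.55), and Elk4, a partner of SRF (0.43). The median of this list was 0.32 for aged and 0.20 for CASIN over young. Of 12 tested partners, such as the heterodimer partner Rxra and the corepressor Ncor1, 0 passed in either comparison, with medians of 0.10 and 0.08.

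Of 17 tested genes linked to the family in quiescence and survival, 6 rose and 1 fell from young to aged, where 6.79% of all genes passed, and 5 rose and 0 fell without aged 2. Tox, a nuclear factor linked to Nr4a genes in exhausted T cells, rose by 1.13 (SE 0.16, adjusted p = 0.0009469) and the cell cycle inhibitor gene Cdkn1a by 1.01 (SE 0.18, adjusted p = 0.005353), while E2f1, a driver of S phase entry, fell by 1.56 (SE 0.42, adjusted p = 0.04039 by edgeR). From young to CASIN 5 rose and 3 fell, where 10.6% of all genes passed, with Tox at 1.00, E2f1 at -1.59 and the myeloid factor Cebpa at -1.56. The list's medians were 0.08 and -0.045. Heat shock genes went the other way in their median (-0.30 and -0.52), with 1 of 9 rising from young to aged, the cochaperone Dnajb1 (1.04), and 1 rising and 3 falling from young to CASIN, Hspa1a at -2.21 and Hspa8 at -0.52 among them.

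Other nuclear receptors that passed did so upward. Of 26 tested, 5 rose from young to aged (6.79% of all genes passed) and 7 from young to CASIN (10.6% of all genes), and 0 fell, with medians of 0.43 and 0.38. Without aged 2 it was 4 and 7. The retinoid-related orphan receptor gene Rorb rose from 2.4 ± 0.9183 CPM in young to 24.13 ± 7.553 CPM in aged stem-like cells (3.73 on the log2 scale, SE 0.33, adjusted p = 4.544e-05 by edgeR), and the retinoic acid receptor gene Rarb by 2.41. In CASIN stem-like cells Rorb stood at 3.71 and Rarb at 1.91 over young. From aged to CASIN 0 genes of any of these lists passed in stem-like cells. Markers of mature B cells summed to 44.2 to 120.1 CPM in young, 32.19 to 574 CPM in aged and 44.68 to 170.7 CPM in CASIN stem-like cells, the highest being aged 3 and aged 2 (248.1). Those of T and NK cells stayed at 15.97 to 55.64, of erythroid cells at 15.77 to 63.24, of stroma at 21.93 to 134.2 and of neutrophils and monocytes at 224.8 to 315.9 CPM. Their part in the Nr4a differences was not tested.

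Across 39 sums of sample and subset, the genes whose log2 level was most like that of a member were found among 7873 genes by Pearson's r, as a description, since these points share libraries and batches. For Nr4a1 they were Per1 (0.940), a clock gene, Tob2 (0.937), Midn (0.930), Msi2 (0.925) and H2-Q7 (0.919), with Nr4a2 at 0.911 and Nr4a3 at 0.669. For Nr4a2 the order was headed by Per1 (0.945), Tgoln1 (0.937) and Casp4 (0.930). For Nr4a3 it was headed by Slc5a3 (0.963), Slc3a2 (0.952), a subunit of amino acid transporters, and Traf1 (0.951). Taken relative to the batch means, the order changed: Nr4a1 then came closest to Lgals3bp (0.939) and Dnajb1 (0.936), Nr4a2 to Casp12 (0.955) and Egr3 (0.95), and Nr4a3 to Ets1 (0.808) and Egr3 (0.8), with Nr4a2 at 0.764. Among the 39 sums were those of myeloid-like cells in young 1, young 2 and CASIN 2, at 0, 8.664 and 10.49 CPM of Nr4a1. How far these low points set the values of r was not tested.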

How the data were processed

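Single-cell RNA libraries of frozen and thawed LSK cells were prepared with the 10x Genomics 3' chemistry. The deposited files hold UMI counts per gene and barcode for each of 9 samples, which the authors made with Cell Ranger 3.1.0 on mm10 with Ensembl release 93. Barcodes were kept with at most 10% mitochondrial UMIs, at most 6000 genes, 1000 to 40000 UMIs and an absolute residual of at most 0.4 when log gene number was regressed on log UMI number. Of 31053 genes 18697 were in at least 3 kept cells. Depth per sample was 17555578 to 35118707 UMIs in kept cells. Counts cover sampling error only.

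Cells were clustered with Seurat 5.3.0 and sctransform 0.4.2 (35 components, resolution 0.4) without the Nr4a, immediate early and heat shock genes. A cluster was named where at least 3 markers of a class were among its top 10 genes more than of any other class, and Ebf1 and Cd79a were not, a rule set after seeing the clusters. UMIs were summed per sample and subset (at least 10 cells) and tested with edgeR 4.0.16 (TMM, filterByExpr, quasi-likelihood, batch as a term, all 9 samples, Benjamini-Hochberg over all genes tested, threshold 0.05). All 3 genes passed the expression filter in the 4 subsets tested and none in myeloid-like cells. Co-detection and shares were computed with Python 3.11.15 and scipy 1.17.1 on cells thinned to 4000 UMIs (mean of 20 draws), with exact permutation tests over samples. A pair of genes was tested where at least 6 samples had at least 1 expected cell with both. Likeness used log2(CPM + 1) of genes with a mean of at least 10 CPM. DESeq2 1.42.0 was an alternative. Scripts were tested on simulated data. The simulated counts for edgeR held no batch effect, so that test does not bear on the batch differences seen here. Same-numbered samples do not all share a batch, and whether the numbers mark pairs was not settled, so the main fit did not pair them.

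Named genes were the 3 members, up to 3 genes per list and comparison in stem-like cells that passed, had the same sign in both batches and changed most on the log2 scale, and the 5 genes most like each member. Some of the genes these rules or checks gave are not reported here. The members, lists and tests were chosen with earlier results of these data known, so the list counts are descriptions. Protein sequences were not used here.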

Additional observations from a re-analysis of the deposited data

Results flagged for a closer look

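The effect of CASIN on Nr4a2 in cycling-like cells ran in opposite directions in the batches. CASIN over aged was 0.57 on the log2 scale in the first batch (aged 1 at 40.32, CASIN 1 and 2 at 57.45 and 62.27 CPM) and -1.24 in the second (aged 2 and 3 at 410.8 and 209.1, CASIN 3 at 131.2 CPM). In the same cells CASIN over young for Nr4a3 was 0.417 in the first batch and -0.104 in the second. The first value rests on only 9 and 13 UMIs in young 1 and 2 and on 6 each in CASIN 1 and 2. The second sets the single libraries young 3 (32.3 CPM) and CASIN 3 (30.05 CPM) against each other. Neither difference between batches was tested.

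The 13694 barcodes above the 10% mitochondrial limit entered no main comparison. Only an alternative over all LSK cells with a limit of 20% (22860 cells kept) used part of them. These barcodes carried Nr4a1 and Nr4a2 at higher mean levels in aged and CASIN samples than in any young sample. Nr4a1 averaged 896.3 CPM (SD 320.5) in aged samples and 567.7 CPM (SD 207) after CASIN, against at most 246.3 CPM in a young sample. The mean of Nr4a2 was 706.2 CPM (SD 611.1) for aged and 528.9 CPM (SD 287.4) for CASIN samples, against at most 160.8 CPM in young. Aged 1 was the highest, at 1395 CPM from 226 barcodes. CASIN 1 and 2 (782 and 588.3 CPM) lay above aged 2 and 3 (494.1 and 229.4 CPM). Of the non-mitochondrial UMIs, Nr4a2 stood at 5.284 to 7.404 times its level in kept cells in the first batch. In the second batch it stood at 1.058 to 1.246 times. Nr4a3 averaged 78.34 CPM in aged (SD 62.86, from 20.28 to 145.1) and 35.25 CPM in CASIN samples (SD 26.41), against at most 50.38 CPM in young, so its groups overlapped.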

How the results depend on the processing

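Of the alternatives other than leaving out a sample, 529 fitted fold changes of the Nr4a genes kept direction and side of the threshold, 49 passed newly, 28 were lost and 12 turned. For aged over young, 6 of 12 gene and subset pairs passed. Without the expression filter 12 passed, without the batch term 0, with the 2 groups alone 3, and leaving out each sample 2 to 10. Over all LSK cells 2 of 3 passed, 0 without the batch term, 1 with the 2 groups alone, and 0 to 3 leaving out each sample. For CASIN over aged, 0 of 12 passed. Without the filter 6 did, in the second batch alone (1 CASIN library, the spread from 2 aged ones) 4, and leaving out each sample 0 to 1, and over all LSK cells 2 in the second batch alone and 0 leaving out each sample. For CASIN over young, 3 of 12 passed. Without the filter 9 did, without the batch term 0, with the 2 groups alone 6, in the first batch alone 6, in the second alone 0, and leaving out each sample 1 to 6. Over all LSK cells 1 of 3 passed, 2 without the filter, 0 without the batch term, 2 with the 2 groups alone, 0 at a mitochondrial limit of 5%, 2 in the first batch alone, and 0 to 2 leaving out each sample. Of the 27 interaction tests 0 passed, 1 without the filter and 5 with a subset by batch term. That 1 was Nr4a1 for CASIN over aged in stem-like against central cells. In that fit 23 of 19730 genes passed, against 0 of 12024 with the filter. The cause was not tested for any of these settings. The share of all genes passing under the other settings is not given here, so these counts do not single out the Nr4a genes.

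The replicate block, tried because the labels number samples alike, gave 8 of 12 pairs for aged over young and 7 for CASIN over young, and over all LSK cells 1 and 2. The share of all genes passing under the block is not given here. Nr4a3 turned under the block in cycling-like cells (-0.073 for aged over young, 0.061 for CASIN over aged) and, for CASIN over aged, in stem-like (0.162) and central cells (0.024). Same-numbered samples do not always share a batch, as with young 2 and aged 2. Their r was -0.614 with group means taken off and 0.268 with batch means taken off too. The first value carries the batch difference, so it does not tell whether the numbers mark pairs.

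Leaving out each sample turned 7 values. Nr4a3 in cycling-like cells, aged over young, ranged from -0.061 (without aged 2) to 1.192. For CASIN over aged, Nr4a3 ranged from -0.617 to 0.092 (without aged 2) in stem-like, from -0.628 to 0.191 in central (without CASIN 3, and 0.068 without aged 2) and from -1.227 to 0.058 (without aged 2) in cycling-like cells, and Nr4a2 from -0.926 to 0.258 (without CASIN 3) in cycling-like cells, where it was 0.556 in the first batch alone. For CASIN over young, Nr4a3 in lymphoid-like cells ranged from -0.136 to 0.124 (without CASIN 3, and 0.116 without young 3) and was 0.149 in the first batch alone. In cycling-like cells it ranged from -0.105 to 0.353 (without young 3, 0.344 without CASIN 3, 0.018 without young 2), and turned with DESeq2 (0.095), no filter (0.017), no batch term (0.043), a 5% mitochondrial limit (0.004), thinned cells (0.396) and immediate early genes in the clustering (0.090).

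Nr4a pairs past the co-detection threshold numbered 12 to 13 leaving out each sample. Without thinning, the aged minus young difference in stem-like cells was 23.27 percentage points for the Nr4a1 share, and 3.658 for Nr4a1, 3.17 for Nr4a2 and 0.5441 for Nr4a3 in UMIs per positive cell. At 2000 UMIs it was 0.594 for Nr4a1. Scrublet called 59 cells (0.3721%) doublets, too few to have worked, so the planned run without doublets was not run, and the 822 cells with the highest 5% of scores were left out instead. In myeloid-like cells, taking samples with under 10 cells gave no value for any Nr4a gene, and depth there limits what could be seen.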

Other observations

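Outside the named subsets, the highest levels of Nr4a1 and Nr4a2 were in an unnamed cluster of 412 cells led by Lars2 and the mitochondrial gene mt-Nd6, whose median UMI count was 0.5166 of that of its samples. It averaged 595.6 ± 544.5 CPM of Nr4a1 (SD, n = 9) and 303.2 ± 284.1 CPM of Nr4a2, where stem-like cells averaged 285.2 CPM of Nr4a2. Cells of the interferon-responsive cluster (365) averaged 366.0 ± 252.1 CPM of Nr4a1.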
